A study of Bos taurus with 11 samples.

Results

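Cytosolic heat shock proteins and their co-chaperones were followed in the endometrium, the inner lining of the uterus, of dairy cows soon after calving. The members are the genes HSPA1A, HSPA8, HSPH1, HSP90AA1, HSP90AB1, HSPB1, HSPD1, DNAJA1, DNAJB1 and DNAJB5. They were found by symbol in the platform annotation, using only probe sets with exactly 1 symbol, and all 10 of 10 were present, with 22 probe sets among the 24016 tested. For each gene the probe set that was brightest on average over the 11 arrays was taken as the main one, among 9155 genes in all. DNAJB5 is set apart from the other 9 members below because its difference between the groups was already known from earlier results of these data, so its difference is given as a description. HSPD1 encodes a chaperonin of the mitochondrial matrix, so the word cytosolic does not cover it.

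In the severe group (n = 6) the daily ration was limited to 25 kg silage plus 4 kg concentrate, with milking 3 times daily. In the mild group (n = 5) grass silage was offered without limit plus 8 kg concentrate, with milking 1 time daily. Both regimes began on day 2 after calving, in Holstein-Friesian cows of several parities (mean 4.7) that had been blocked and randomised. The regimes were designed to give a severe or a mild negative energy balance, a state in which milk and body upkeep together use more energy than feed supplies. Endometrium was taken at slaughter 14 ± 0.4 days after calving, and the total RNA of each cow was measured on 1 Affymetrix bovine array. Each sample is a separate animal. Values are RMA signals on the log2 scale, so a difference of 1 is a doubling, and 1 probe set's level cannot be set against another's.

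Chaperones bind proteins that are not yet folded, or that have come unfolded, and keep them from clumping. Hsp70 proteins work in cycles of ATP binding and hydrolysis, in which J-domain proteins such as the DNAJ family start hydrolysis and exchange factors release the nucleotide, while Hsp90 takes over later stages for clients such as kinases and steroid receptors, which include the progesterone and estrogen receptors of the endometrium. Heat shock factor HSF1 induces many of these genes when misfolded proteins build up.

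The arrays correlated pairwise at 0.948 to 0.991. Epithelial, stromal and smooth muscle markers were all measurable in this tissue: of 9, 8 and 8 measured markers only KRT8 was dim, a word used here for a mean signal under 5.52, where the lowest 40% of probe sets lie. MPO and TREM1 among 7 neutrophil markers and KDR among 7 endothelial markers were dim as well. The mean level of the neutrophil markers ran from 6.89 to 9.33 in severe cows and from 5.19 to 6.40 in mild cows, with no overlap, and 6 of the 7 had an unadjusted p under 0.05, all of them higher in severe cows. That of the smooth muscle markers ran from 10.68 to 11.96 in severe cows and from 10.98 to 12.09 in mild cows, that of the epithelial markers from 7.12 to 8.51 in severe and from 7.75 to 8.55 in mild cows, and both overlapped. Stromal fibroblast markers ran from 10.49 to 10.85 in severe and from 10.18 to 10.86 in mild cows, endothelial markers from 7.66 to 8.17 in severe and from 7.59 to 8.13 in mild cows, and macrophage markers from 8.08 to 10.18 in severe and from 7.85 to 9.18 in mild cows. Of the 6 macrophage markers 6 had a higher mean in severe cows, and C1QA and C1QB, by 1.20 log2 units each, had an unadjusted p under 0.05. Among the stromal markers PDGFRA was higher by 0.97 and HOXA10 differed by -0.71, among the epithelial ones CLDN10 differed by -0.997, and among the endothelial ones the dim KDR by -0.24, all at that level. Of the smooth muscle markers 0 of 8 reached it. Adjusted p of C1QA, C1QB, PDGFRA, HOXA10, CLDN10 and KDR ran from 0.289 to 0.359 in limma. The mean 3' minus 5' difference over 6 control transcripts, a sign of RNA quality, ran from 0.42 to 0.82 in severe cows, highest in severe 2, and from 0.45 to 0.65 in mild cows. The part of these cells and of RNA quality in the differences below was not tested. In whole tissue, fewer cells of a type and less RNA per cell cannot be told apart.

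The study's question was which transcripts differ between cows in severe and in mild negative energy balance. Of the main probe sets of the 10 members, 8 had a lower mean in severe cows and 2, HSPA1A and DNAJB1, a higher one, and the median log2 difference, severe minus mild, was -0.14. Over all 9155 genes 51.1% had a lower mean in severe cows and the median difference was -0.00378. Most members are bright, and equally bright genes were not taken as a background, so the count may not be particular to chaperones. In limma, 0 of the 10 members and 0 of all 24016 probe sets (0%) had an adjusted p under 0.05. An unadjusted p under 0.05 was reached by 1412 probe sets (5.88%) on the lower and 1673 (6.97%) on the higher side in severe cows. Among the main probe sets of the members 2 were lower at that level, DNAJB5 and HSPH1, against 7.46% of all main probe sets, and 0 were higher, against 8.45%. Which members reached it depended on the setting. HSPH1 did not without mild 1 or mild 4 (limma unadjusted p = 0.0825 and 0.099). After a second quantile normalization HSPA8, HSP90AA1, HSP90AB1 and HSPD1 reached it as well (limma unadjusted p = 0.0081, 0.022, 0.015 and 0.035). Over all 22 probe sets 18 had a lower mean in severe cows, against 52.2% of all probe sets, and 5 of them had an unadjusted p under 0.05. Of these 5, HSPH1 held 3, and HSP90AA1 and DNAJB5 held 1 each, so they are not separate genes. Adjusted p in the 10 members ran from 0.282 to 0.771, so none of the differences that follow passed the test, and their sizes are given as measured.

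**Figure D1:**
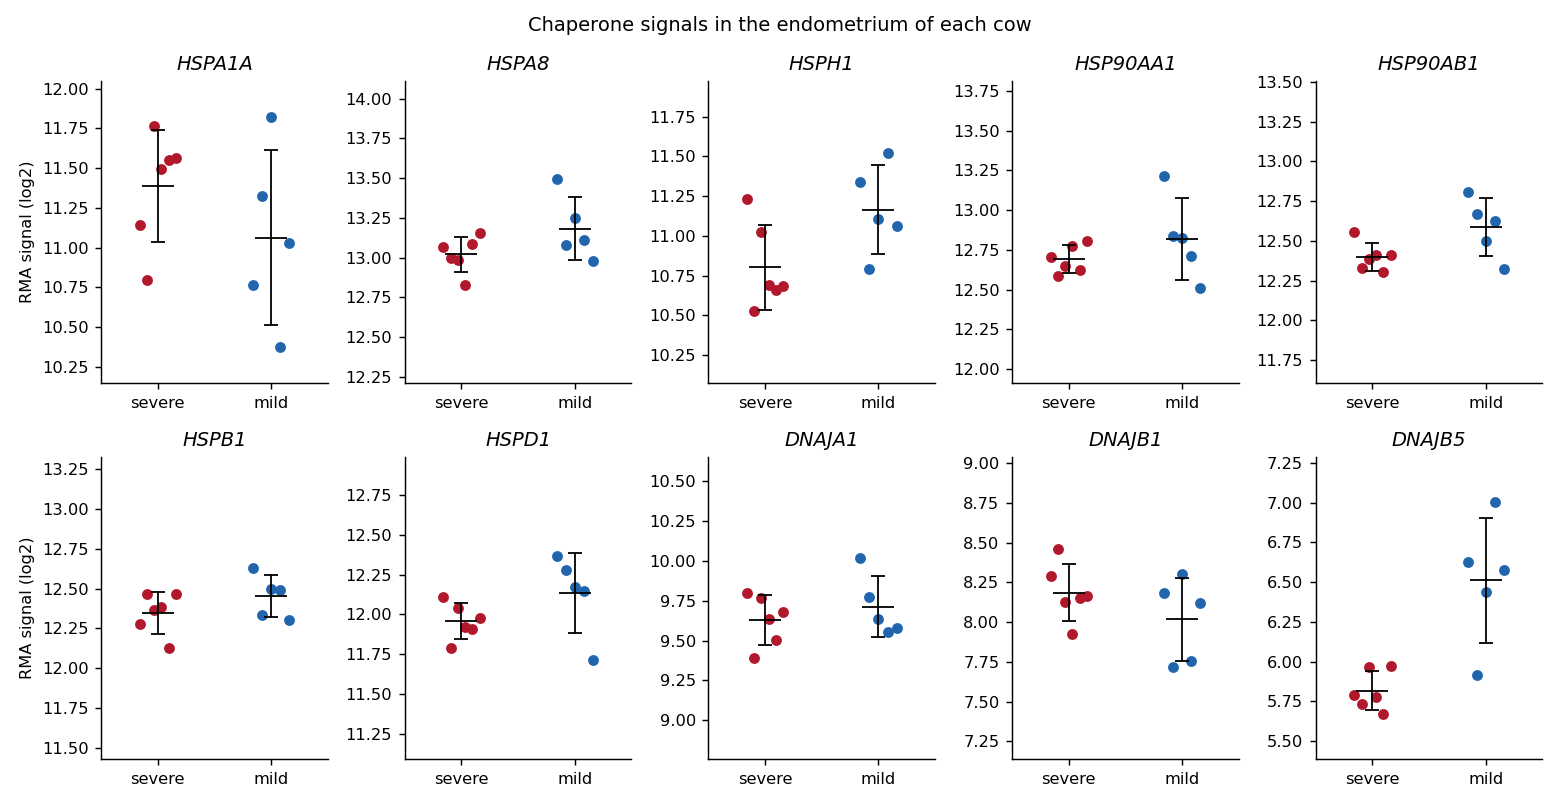
RMA signal (log2) of the main probe set of each of the 10 members, 1 point per cow, severe (n = 6) on the left and mild (n = 5) on the right of each panel; bars show mean ± SD and every panel spans the same range of log2 units. In DNAJB5 4 severe cows lie below the lowest mild cow and 4 mild cows above all severe cows, while the groups overlap broadly in HSPA1A, HSPB1, DNAJA1 and DNAJB1.

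The J-domain proteins come first, because DNAJB5 had the largest difference among the main probe sets of the members. DNAJB5 is a type B J-domain protein, known in mouse heart to bind the histone deacetylase HDAC4. Its signals were 5.79, 5.73, 5.96, 5.78, 5.67 and 5.97 in severe cows 1 to 6, against 6.63, 5.92, 6.44, 7.004 and 6.57 in mild cows 1 to 5. All severe cows lay within 0.30 of each other, 4 mild cows lay above every severe cow, and mild 2 lay among the severe cows. Severe cows averaged 5.82 ± 0.12 (SD, n = 6), against 6.51 ± 0.39 (SD, n = 5) for the mild group. The log2 difference was -0.69 ± 0.16 (SE, limma adjusted p = 0.282), or 0.618 times the mild level. The signals of severe cows lie just above the dim limit of 5.52. Without mild 2 the difference was -0.84 and without mild 4 it was -0.57.

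A second DNAJB5 probe set was dim in every cow, between 3.37 and 3.56 in severe and between 3.54 and 3.75 in mild cows. Its difference of -0.13 ± 0.06 (SE) has the same sign, and with both probe sets averaged the difference of DNAJB5 was -0.41 with an adjusted p of 0.183.

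DNAJB1 (Hsp40), the main J-domain partner of Hsp70 in the heat shock response, had signals of 8.29, 8.46, 8.13, 7.92, 8.15 and 8.16 in severe cows, against 8.19, 7.72, 8.30, 7.76 and 8.12 in mild cows. The groups overlapped throughout, with mild 2 and mild 4 the lowest of all cows. The log2 difference was 0.17 ± 0.13 (SE, limma adjusted p = 0.596), and 0.09 without mild 2, 0.10 without mild 4 and 0.03 with both probe sets averaged. The other DNAJB1 probe set differed by -0.10 ± 0.20 (SE), so the direction of this gene is not settled by its probe sets. DNAJA1, a type A J-domain protein that hands clients to Hsp70, ran from 9.39 through a median of 9.66 to 9.80 in severe cows, against 10.02, 9.78, 9.64, 9.55 and 9.58 in mild cows. Its difference was -0.08 ± 0.10 (SE, limma adjusted p = 0.771), and -0.00632 without mild 1, the highest cow, or -0.04 without severe 2, the lowest.

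On the main probe sets, the differences of the other 9 members ran from -0.36 to 0.32 with a median of -0.13, and 7 of 9 were lower in severe cows, against -0.69 for DNAJB5. That order depends on the probe set: with each gene's probe sets averaged, HSPH1 differed by -0.49, DNAJB5 by -0.41 and HSP90AA1 by -0.40. Single other probe sets of HSPH1 and HSP90AA1 differed by -0.73 and -0.67. When each main probe set is centred on its mean over all cows, DNAJB5 lay below the mean of the other 9 by 0.18 to 0.39 in all 6 severe cows. In mild cows the same quantity, DNAJB5 minus the other 9, was 0.26, -0.22, 0.15, 0.92 and 0.56 for cows 1 to 5. Severe cows thus lay between -0.39 and -0.18, and mild 2, at -0.22, was the 1 mild cow in that range. These values are a description, since DNAJB5 was picked with its difference known.

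HSPH1 (Hsp105), a large Hsp70 relative that acts as an exchange factor and holds unfolded proteins, had the next largest difference of a main probe set in that direction. Its signals were 11.23, 10.53, 11.02, 10.69, 10.66 and 10.68 in severe cows, against 11.34, 10.79, 11.11, 11.52 and 11.06 in mild cows. Severe 2, 4, 5 and 6 lay below the lowest mild cow, and severe 1 and severe 3 lay among the mild cows. The difference was -0.36 ± 0.15 (SE, limma adjusted p = 0.362).

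All 4 HSPH1 probe sets had a lower mean in severe cows. The other 3 differed by -0.48 ± 0.22, -0.73 ± 0.25 and -0.40 ± 0.18 (SE), the last of them dim, with adjusted p between 0.310 and 0.392. They varied together over the cows, with Pearson r between 0.805 and 0.967 for their 6 pairs over 11 cows, as a description of probe sets that read 1 transcript. Mild 4 was the highest cow on all 4.

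HSPA8 (Hsc70), the constitutive Hsp70 of the cytosol that also strips clathrin from vesicles, had signals of 13.07, 13.00, 12.98, 12.83, 13.09 and 13.16 in severe cows, against 13.49, 13.08, 13.25, 13.11 and 12.98 in mild cows. Mild 1 was the highest, mild 3 also lay above every severe cow, and severe 4 was the lowest. Mild 2, mild 4 and mild 5 lay among the severe cows. The difference was -0.16 ± 0.10 (SE, limma adjusted p = 0.506), or -0.08 without mild 1 and -0.24 after a second quantile normalization.

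HSPA1A (Hsp70), the member best known for its induction by heat and other stress, had 6 probe sets, and they split in direction. The main one had signals of 11.14, 10.80, 11.77, 11.50, 11.55 and 11.56 in severe cows, against 10.77, 11.32, 11.82, 10.37 and 11.03 in mild cows. Mild cows held both the highest and the lowest value, and severe cows lay within that span. The difference was 0.32 ± 0.24 (SE, limma adjusted p = 0.601), or 0.15 without mild 4 and 0.51 without mild 3.

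In order of their mean signal the 6 HSPA1A probe sets differed by 0.32, 0.32, 0.13, -0.19, -0.68 and -0.45, the last of them dim. The platform annotation gives HSPA1A under 2 Entrez gene numbers, and the first 2 probe sets carry a number that the RefSeq gene table does not hold. Those 2 followed each other over the cows at r = 0.986. The fifth and the sixth followed each other at r = 0.823, but the first and the fifth at r = -0.014, as a description over 11 cows. RefSeq lists HSPA1B among the synonyms of bovine HSPA1A, so near-identical copies may share these probes. With all 6 averaged the difference turned to -0.09, and no direction is given for HSPA1A.

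**Figure D2:**
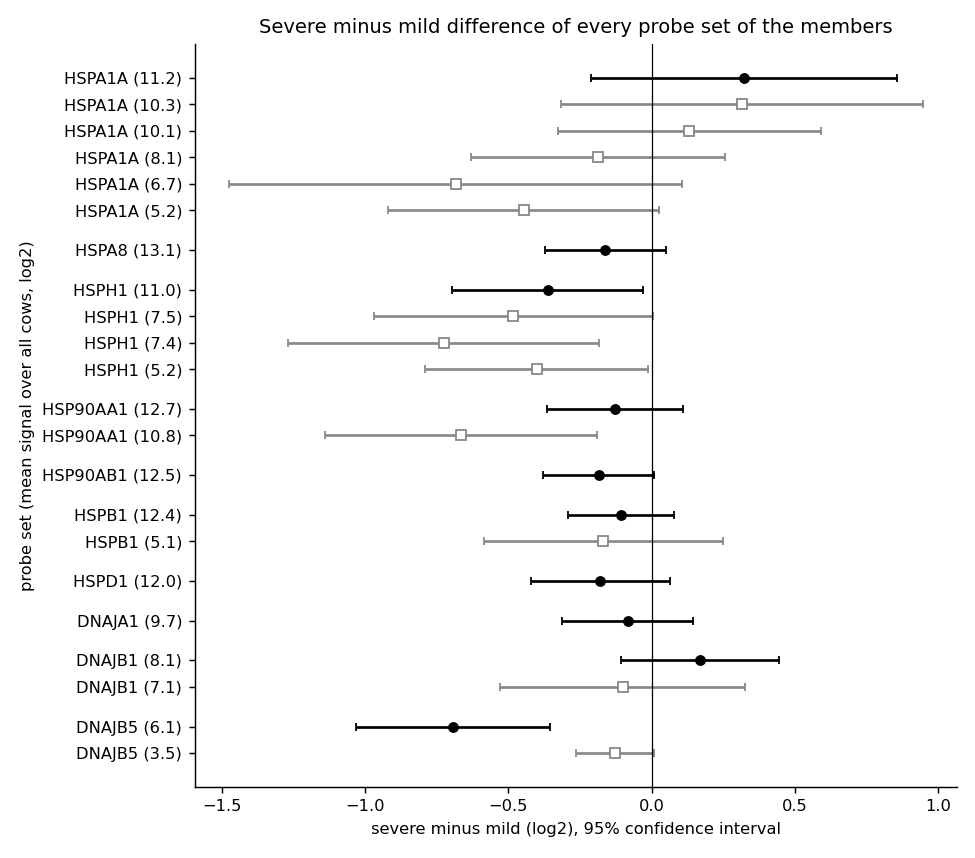
Severe minus mild log2 difference of all 22 probe sets of the members with its 95% confidence interval from limma; filled circles are main probe sets, open squares the others, and the number beside each gene is the probe set's mean signal over all cows. The 4 HSPH1 probe sets lie on 1 side of 0, from -0.73 to -0.36, while the 6 HSPA1A probe sets spread over both sides, from -0.68 to 0.32.

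The pair of cytosolic Hsp90 genes followed. HSP90AA1, the inducible form, had signals on its main probe set of 12.71, 12.58, 12.65, 12.78, 12.62 and 12.80 in severe cows, against 13.21, 12.84, 12.82, 12.71 and 12.51 in mild cows. Mild 1 was far the highest and mild 5 the lowest. The difference was -0.13 ± 0.11 (SE, limma adjusted p = 0.647), or -0.03 without mild 1, -0.20 without mild 5 and -0.21 after a second quantile normalization.

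The second HSP90AA1 probe set gave a wider gap. It read 10.87, 9.73, 10.54, 10.31, 10.65 and 10.89 in severe cows, against 11.76, 10.90, 11.19, 11.03 and 10.96 in mild cows. The groups did not overlap, although the highest severe cow and the lowest mild cow were nearly equal, and severe 2, the cow with the largest 3' minus 5' difference, was the lowest. This was the 1 of the 22 probe sets whose groups did not overlap, against 1.07% of all probe sets. Its difference was -0.67 ± 0.22 (SE, limma adjusted p = 0.308). The 2 probe sets correlated at r = 0.674 over 11 cows, and averaged they gave a difference of -0.40 for HSP90AA1.

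HSP90AB1, the constitutive form, had signals of 12.56, 12.33, 12.39, 12.41, 12.30 and 12.41 in severe cows, against 12.80, 12.67, 12.50, 12.63 and 12.32 in mild cows. Severe 1 lay among the mild cows and mild 5 among the severe cows. The difference was -0.18 ± 0.09 (SE, limma adjusted p = 0.412), or -0.29 after a second quantile normalization.

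HSPB1 (Hsp27), a small heat shock protein that holds unfolded proteins without using ATP, ran from 12.13 through a median of 12.37 to 12.47 in severe cows, against 12.63, 12.33, 12.50, 12.49 and 12.30 in mild cows. The groups overlapped, with a difference of -0.11 ± 0.09 (SE, limma adjusted p = 0.625), or -0.06 without mild 1, -0.06 without severe 5 and -0.19 after a second quantile normalization. A second, dim probe set differed by -0.17 ± 0.19 (SE). HSPD1 (Hsp60), which encloses proteins that fold in the mitochondrial matrix, ran from 11.79 through a median of 11.95 to 12.11 in severe cows, against 12.37, 12.28, 12.18, 12.15 and 11.71 in mild cows. All severe cows lay below 4 of the mild cows, and mild 5 was the lowest of all. The difference was -0.18 ± 0.11 (SE, limma adjusted p = 0.520), or -0.29 without mild 5 and -0.27 after a second quantile normalization.

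Counted over cows, mild 1 was the highest of the 11 in 6 of the 10 members, HSPA8, HSP90AA1, HSP90AB1, HSPB1, HSPD1 and DNAJA1. The share of all genes that were highest in mild 1 was not counted, so this may not be particular to the members. In the alternative with array weights, mild 1 had the lowest weight of the 11 arrays, 0.57. Mild 4 was the highest in HSPH1 and DNAJB5, mild 3 in HSPA1A and severe 2 in DNAJB1. Mild 5 was the lowest in HSP90AA1 and HSPD1, although mild cows averaged higher in both. Severe 5 was the lowest in HSP90AB1, HSPB1 and DNAJB5. The SD was smaller in severe than in mild cows in 10 of the 10 members, a property of 49.8% of all genes. For HSP90AA1 it was 0.09 in severe and 0.26 in mild cows, for HSPD1 0.11 in severe and 0.25 in mild cows, and for HSPH1 it was nearly equal, at 0.27 in severe and 0.28 in mild cows.

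Whether members varied together from cow to cow was asked for all 45 pairs of main probe sets. Their median r over the 11 cows was 0.367, against 0.017 over all pairs of the 9155 genes. Most members are brighter than most genes, and pairs of equally bright genes were not taken as a background. By permutation with 100000 resamples, two-sided and adjusted over the 45 pairs, 4 pairs passed an adjusted p under 0.05, all of them positive, and 12 had an unadjusted p under 0.05. HSP90AB1 and HSPD1 had the highest correlation, with r = 0.917 (permutation p = 5e-05, adjusted p = 0.00225) and rho = 0.909 (permutation p = 0.00033, adjusted p = 0.0149). Without mild 1 and mild 2, the cows farthest from the median of HSP90AB1, r was 0.833. Within the 6 severe cows it was 0.786 and within the 5 mild cows 0.930. With the group means taken out r was 0.899 (permutation within groups, adjusted p = 0.045), the 1 pair that passed in that form.

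HSP90AA1 joined the same pair. With HSP90AB1 it had r = 0.815 (permutation p = 0.00185, adjusted p = 0.0278) and rho = 0.827 (permutation p = 0.00267, adjusted p = 0.0401). With HSPD1 it had r = 0.814 (permutation p = 0.00086, adjusted p = 0.0194) and rho = 0.864 (permutation p = 0.00113, adjusted p = 0.0254). Both rested in part on mild 1 and mild 5: without them r was 0.588 and 0.655. Within severe cows r was 0.491 and 0.399, and within mild cows 0.875 and 0.861.

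DNAJB5 went with HSPH1, at r = 0.804 (permutation p = 0.00315, adjusted p = 0.0354) and rho = 0.782 (permutation p = 0.00591, adjusted p = 0.0665). Mild 4 was the highest cow in both genes, and mild 2 was the lowest mild cow in both. Without mild 4 and severe 2 r was 0.655. Within the 6 severe cows it was 0.307 and within the 5 mild cows 0.949. With the group means taken out it was 0.687 (permutation within groups, adjusted p = 0.201). DNAJB5 with the other 8 members ran from -0.528 with HSPA1A to 0.561 with HSPB1, and 0 of these passed (smallest permutation adjusted p = 0.222). HSPA1A and DNAJB1 were in none of the 4 pairs, and their r with each other was 0.16. HSPA8 and DNAJA1 were in none of them either, and their values rested in part on mild 1. Without that cow r fell from 0.568 to 0.080 for HSPA8 with DNAJA1 and from 0.778 to 0.387 for HSPA8 with HSP90AA1. For HSPD1 with DNAJA1 it went from 0.750 to 0.619.

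**Figure D3:**
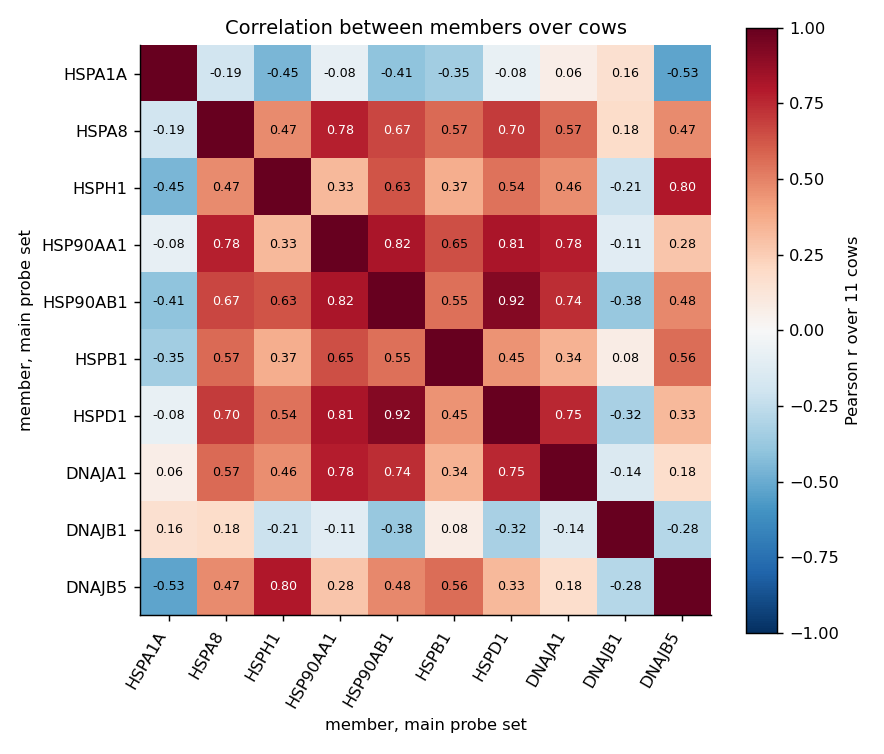
Pearson r over the 11 cows between the main probe sets of the 10 members, from -1 (blue) to 1 (red), with the value in each cell. HSPA8, HSP90AA1, HSP90AB1, HSPD1 and DNAJA1 have positive values with each other, up to 0.917, though no pair with HSPA8 or DNAJA1 passed. HSPA1A and DNAJB1 have low or negative values with most members.

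**Figure D4:**
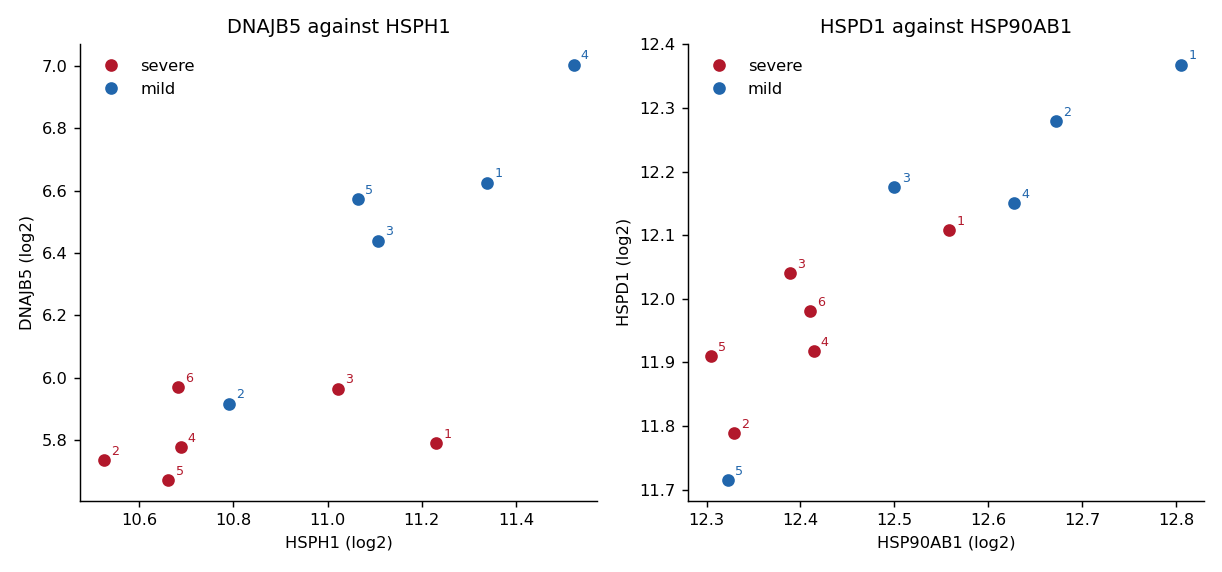
Log2 signals of each cow for DNAJB5 against HSPH1 on the left and HSPD1 against HSP90AB1 on the right, severe cows in red and mild cows in blue, with the cow's number beside its point. On the left mild 4 is at the top and mild 2 lies with the severe cows, and on the right mild 1 is at the top and mild 5 at the bottom.

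Genes with the pattern most like DNAJB5 were sought among 7135 genes that were not dim on average, by Pearson r over the 11 cows, as a description. TERF2IP (r = 0.908), OST4 (0.868), BCAT2 (0.862), RHOU (0.828) and RAB11FIP2 (0.816) came first. With group means taken out they had r between 0.565 and 0.723. For HSPA1A the first were FADD (0.763), LRP5 (0.76), GPR137 (0.747), AP1S1 (0.738) and CACNG6 (0.727). Their differences, severe minus mild, ran from 0.03 to 0.11, and those of the DNAJB5 genes from -0.70 to -0.13.

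The chaperone genes outside the 10 members were then counted, from 8 lists with 71 measured genes. Of these, 55 (77.5%) had a lower mean in severe cows, against 51.1% of all genes, and their median difference was -0.11. Equally bright genes were not taken as a background here either. In limma 0 of 71 passed the adjusted test. At an unadjusted p under 0.05 16 were lower (22.5%), against 7.46% of all genes, and 1 was higher (1.41%), against 8.45%. The 16 became 6 without severe 4, 8 without mild 4, 9 without mild 1, 9 without mild 2, 10 without mild 3, 10 without severe 6 and 9 without mild 2 and severe 5 together. It rose to 22 without mild 5, 21 after a second quantile normalization, 18 with array weights and 17 without severe 3. The count with a lower mean ran from 50 to 54 when any 1 cow was left out.

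The chaperonin TRiC, a ring that folds actin and tubulin, and prefoldin, which delivers them to it, formed the list with the most such genes. Of 12 measured subunits 11 had a lower mean in severe cows and 7 an unadjusted p under 0.05, with a median difference of -0.21. Over all genes 51.1% had a lower mean and 7.46% were lower at that level, shares that apply to the other lists below as well. How many of the 7 remained when 1 cow was left out was not counted. PFDN1, a prefoldin subunit, ran from 8.35 through a median of 8.38 to 8.53 in severe cows, against 8.55, 8.84, 8.72, 8.88 and 8.64 in mild cows. The groups did not overlap, with a difference of -0.31 ± 0.08 (SE, limma adjusted p = 0.284). PFDN1 was the 1 gene of the 71 without overlap, against 109 of all 9155 genes. CCT6A, a TRiC subunit, ran from 10.26 through 10.68 to 10.78 in severe cows, against 11.46, 11.04, 11.18, 10.96 and 10.60 in mild cows, a difference of -0.48 ± 0.15 (SE). Mild 5 was the 1 mild cow among the severe ones. CCT5 and CCT8, 2 further subunits, differed by -0.40 ± 0.15 and -0.26 ± 0.09 (SE), and adjusted p of these 4 genes ran from 0.284 to 0.325.

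Hsp90 co-chaperones were lower in severe cows in 11 of 13 genes by their means, 4 of them at an unadjusted p under 0.05, with a median of -0.13. FKBP4 (FKBP52), an immunophilin of steroid receptor complexes, ran from 8.55 through a median of 8.70 to 10.003 in severe cows, against 9.93, 10.17, 9.91, 10.39 and 9.02 in mild cows. Severe 3 lay at the level of most mild cows, and mild 5 lay among the severe ones. Its difference of -0.90 ± 0.30 (SE, limma adjusted p = 0.308) was the largest in all 8 lists. PPP5C, a phosphatase that docks on Hsp90, differed by -0.47 ± 0.20 (SE) and by -0.31 without severe 2. PPID (cyclophilin 40) differed by -0.29 ± 0.12 (SE), or -0.18 without mild 2 and severe 5 and -0.15 with its probe sets averaged, and NUDC by -0.24 ± 0.11 (SE).

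Of 11 exchange factors and co-chaperones of Hsp70, 10 had a lower mean in severe cows and 2 an unadjusted p under 0.05. These were BAG1, an exchange factor, at -0.17 ± 0.06 (SE), and HSPBP1, another, at -0.27 ± 0.11 (SE), with adjusted p of 0.322 and 0.344 in limma. Of 4 other Hsp70 and Hsp110 genes 2 had a lower mean, and HSPA4, an Hsp110 of the cytosol, differed by -0.19 ± 0.09 (SE, limma adjusted p = 0.376), or -0.32 with its probe sets averaged.

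All 6 other small heat shock proteins had a lower mean in severe cows, 2 of them at an unadjusted p under 0.05. HSPB8, which works with BAG3 in the selective clearance of proteins, ran from 8.26 through a median of 9.20 to 10.16 in severe cows, against 9.78, 9.86, 9.99, 10.48 and 9.82 in mild cows. Its difference was -0.76 ± 0.31 (SE) and that of HSPB6 (Hsp20), abundant in muscle, -0.51 ± 0.21 (SE), with limma adjusted p of 0.348 and 0.365. Of the 8 smooth muscle markers 6 had a lower mean in severe cows and 0 had an unadjusted p under 0.05. Their part in the values of HSPB6 and HSPB8 was not tested.

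The other lists held fewer differences. All 7 mitochondrial chaperones had a lower mean in severe cows, but 0 had an unadjusted p under 0.05, and HSPA9 (mortalin), the Hsp70 of mitochondria, differed by -0.17 ± 0.09 (SE, limma adjusted p = 0.477) and by -0.10 without mild 2 and severe 5. The 15 other J-domain proteins were split, 7 lower and 8 higher, with a median of 0.02. DNAJC6 (auxilin), which uncoats clathrin vesicles with Hsc70, was the 1 gene that was higher at an unadjusted p under 0.05, by 0.31 ± 0.13 (SE, limma adjusted p = 0.365), and its signal was dim. The count of such genes in the 8 lists ran from 0 to 3 when 1 cow was left out, being 3 without severe 3. Of 3 measured heat shock factors 1 had a lower and 2 a higher mean in severe cows, with a median of 0.08. HSF1, the factor that induces many chaperones, was the lower one and had the smallest p. It differed by -0.09 ± 0.08 (SE, limma adjusted p = 0.642), or -0.05 without severe 1 and -0.05 without mild 1.

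**Figure D5:**
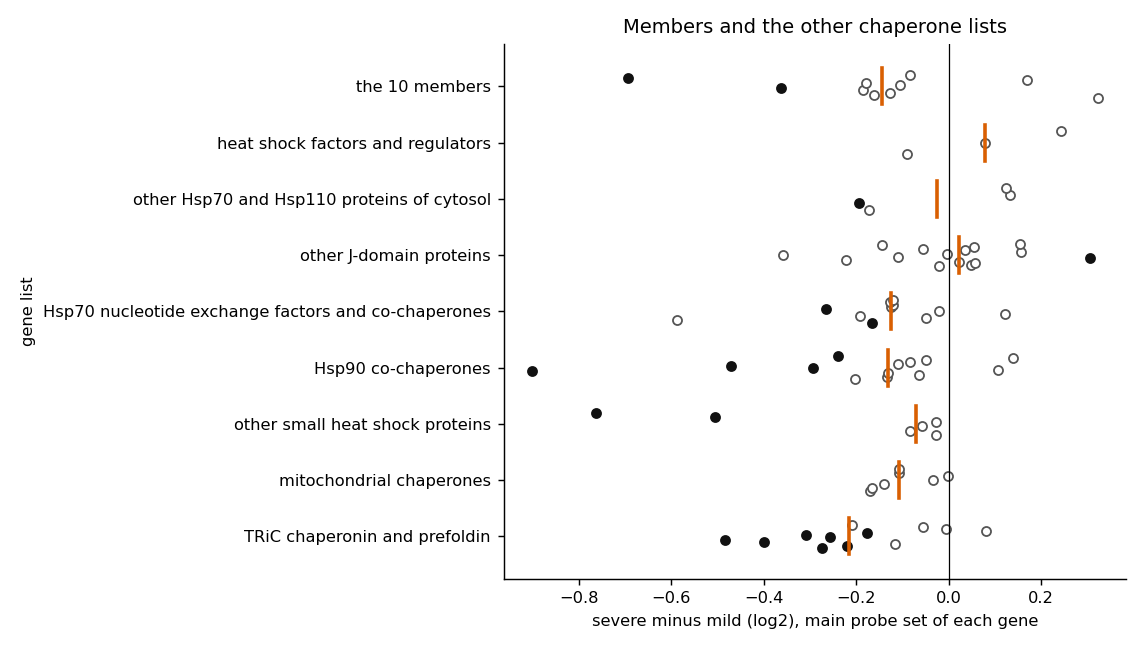
Severe minus mild log2 difference of the main probe set of each gene, 1 point per gene, for the 10 members and the 8 other chaperone lists; filled points have an unadjusted limma p under 0.05 and the orange line is the list's median. The TRiC and prefoldin genes lie mostly left of 0 with a median of -0.21, and the other J-domain proteins lie around a median of 0.02.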

How the data were processed

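Endometrial RNA of 11 cows was measured on 1 Affymetrix bovine array each. The authors deposited log2 signals made with RMA, which corrects background, normalizes by quantiles and sums probes up; the submitters' processing notes name RMA without a version. That the scale is log2 follows from the range of 2.65 to 14.6. Quantile normalization hides a change common to all transcripts. An array has no read depth, so the number of arrays limits the precision. After 112 array controls were left out, severe was compared with mild over 24016 probe sets with limma 3.58.1 in R 4.3.3 (two-sided moderated test of lmFit and eBayes), and p-values were adjusted by Benjamini-Hochberg over the whole table. All single-gene p-values come from limma. Genes were named from the platform annotation of 2016, in which 13292 probe sets had 1 symbol, 86 several and 10638 were not listed. Through Entrez numbers 13263 matched a RefSeq table of ARS-UCD2.0, which renamed 0. The procedure was tested on simulated data.

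The members and lists were chosen with earlier results of these data known. All members are named, and of each other list the up to 4 genes with the smallest unadjusted p under 0.05, or the 1 with the smallest p. Correlations were made in NumPy 2.4.6 under Python 3.11.15, and matplotlib 3.10.9 drew the figures. Cow numbers follow the order of the samples. The labels do not tie cows to blocks or batches. The alternatives tried left out the dimmest 40% of probe sets or each cow in turn or mild 2 and severe 5 together, or used a second quantile normalization, a common median, eBayes with trend and robust, array weights, 1 probe set per gene or the mean of a gene's probe sets. Spearman's rho and the alternatives of the other chaperone lists were added after seeing the data.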

Additional observations from a re-analysis of the deposited data

Results flagged for a closer look

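In 44 groups of values, 22 probe sets in severe and in mild cows, 3 held a cow far from the rest by Dixon's test, where chance gives about 1 in 20. On the HSPA1A probe set that ranks 4 of 6 by mean signal, mild 2 lay at 8.834, with the nearest mild cow at 8.167. On the HSPH1 probe set second in mean signal, mild 4 lay at 8.412, with the nearest mild cow at 7.673, and mild 4 was also the highest cow on the other HSPH1 probe sets. On the dim second DNAJB5 probe set, mild 1 lay at 3.748, with the nearest mild cow at 3.585.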

How the results depend on the processing

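The count of probe sets at an adjusted p under 0.05 was 0 under every alternative that kept all cows, at a threshold of 0.10, with 1 probe set per gene and without mild 2 and severe 5, and it ran from 0 to 16 when 1 cow was left out, being 16 without severe 1 and 2 without severe 3. None of those calls was a member: over 190 alternative values of the 10 members the smallest adjusted p was 0.139. In 189 of them the sign was that of the reported value. HSPA1A was the 1 that turned, at -0.091 with its 6 probe sets averaged, since the probe sets differ in sign. Part of these values could not turn. Leaving out dim probe sets, eBayes with trend and robust, and 1 probe set per gene repeat a difference unchanged, and a common median hardly moved it. Averaging repeats it where a gene has 1 probe set. The count of kept signs is therefore no measure of stability. With each cow left out DNAJB5 ran from -0.84 to -0.57, HSPH1 from -0.46 to -0.27 and HSPA1A from 0.15 to 0.51. The 16 named genes of the other lists kept their sign in 303 of 303 alternative values, with a smallest adjusted p of 0.130. These genes were picked for the smallest p of their lists in the same data. The settings that repeat a difference unchanged are counted here too, so the 303 is no measure of stability either. The count of correlated pairs, 4, was 1 with group means taken out, 8 with probe sets averaged, and 1 to 6 when 1 cow was left out, being 1 without mild 1, mild 5 or severe 2 and 2 without mild 2. No paired analysis was possible because cow numbers were given in accession order and pair no animals.

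The second DNAJB5 probe set lay below 4 log2 units in every cow, where the lowest value on any array was 2.65, and whether that limits its difference was not tested.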
